A study of Rattus norvegicus with 29 samples.

Results

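The effect of neurotrophin-3 (NT3) on gene expression in dorsal root ganglia after stroke was examined at week 5 by setting 5 libraries of NT3-treated rats against 5 libraries of vehicle-treated rats. These 10 libraries, of 29 in all, were taken by their group labels. The comparison itself was chosen with earlier results of these data known. All rats were elderly Lister Hooded rats, with no genotype or exact age given, and 1 library was made from the C6 to C8 ganglia of the affected side of each rat. Per the series text, both groups had a unilateral stroke of the cortex followed by an infusion, which held NT3 in one group and vehicle alone in the other. The title gives the route of NT3 as subcutaneous, and the dose, the length of the infusion and the event from which weeks were counted are not given in the sources used here. The other 19 libraries came from 4 week 5 rats labelled sham (called naïve in the series text), 5 sham rats of week 11 and 10 stroke rats of week 11, with 5 for NT3 and 5 for vehicle. They entered the model that estimates the spread of each transcript, and sham of week 5 and stroke of week 11 also served to place the difference. Rat numbers belong to 1 library each, so nothing was paired.

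NT3 is a secreted growth factor that binds the receptor kinase TrkC, the product of Ntrk3, and more weakly related kinases such as TrkB, the product of Ntrk2. The receptor p75, the product of Ngfr, binds all neurotrophins. In the dorsal root ganglion TrkC is best known from proprioceptors, the large myelinated neurons that supply muscle spindles and tendon organs and that need NT3 during development. A ganglion also holds satellite glia around the neuronal cell bodies, Schwann cells along the axons, resident macrophages, fibroblasts of the capsule and the endoneurium, and blood vessels, and RNA of the whole ganglion mixes all of them.

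Between 17468645 and 20537427 reads were assigned to annotated transcripts in the NT3 libraries, and between 17808861 and 18786419 in the vehicle libraries. Expression is given as CPM, counts scaled to a common library total after adjustment for composition, which is not corrected for transcript length, so levels are compared between groups and not between genes. Markers of sensory neurons (Avil, Nefh, Scn10a), satellite glia (Fabp7, Glul), Schwann cells (Pmp22, Sox10), fibroblasts (Dcn, Lum), macrophages (C1qa, Mrc1) and endothelium (Pecam1, Cdh5) were detected in all 10 libraries. Tac1 was listed at 0 in all 10 libraries, and the listed Calca transcript lay between 2.54 and 6.75 CPM. Counts are per RefSeq transcript, the files set ambiguous reads apart, and 506 genes have several transcripts in the files, Tac1 and Calca among them. Of tissues that a dissection could add, the skeletal muscle gene Acta1 was between 4.57 and 14.4 CPM. The oligodendrocyte gene Mobp was between 0.616 and 1.39 CPM, and Mog, another gene of these cells, between 6.04 and 7.79 CPM. The blood gene Hbb was between 5.32 and 76.1 CPM.

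In a principal component analysis of the 10 libraries, the first component held 43.5% of the variance and did not separate the groups. Rats 1 (vehicle) and 61 (NT3) stood apart on it, at -36.4 and -31.6, and they also had the lowest shares of reads outside annotated features (30.1% and 30.4%, against 31.5% to 34.8% in the other 8 libraries). The second component, with 14.6% of the variance, placed all 5 vehicle libraries (2.03 to 14.8) above all 5 NT3 libraries (-16.2 to -1.09). These placements are a description and carry no test.

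**Figure D1:**
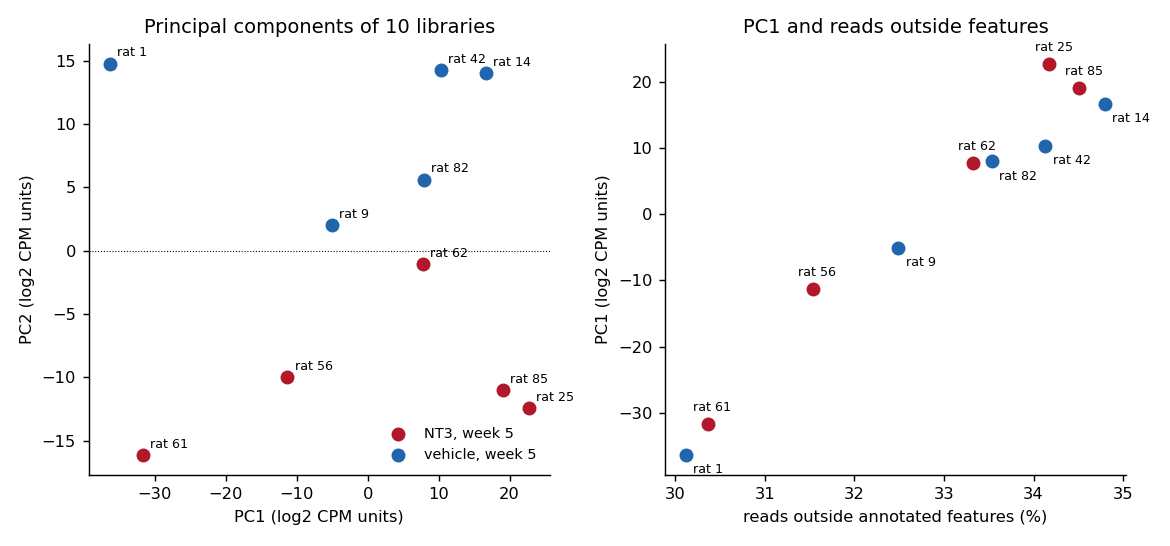
Left, the first 2 principal components of log2 CPM for the 10 libraries of week 5, NT3 in red and vehicle in blue, each point a rat. Right, the first component against the percentage of reads outside annotated features, with rats 1 and 61 at the low end of both; the groups lie apart on the second component only.

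No transcript passed the test. Of 12556 transcripts tested by edgeR's quasi-likelihood test with Benjamini-Hochberg adjustment, 0 (0%) had an adjusted p under 0.05, and the smallest adjusted p was 0.382. At an unadjusted p under 0.05 there were 424 transcripts with the higher mean in NT3 (3.38% of those tested) and 202 with the lower mean (1.61%). DESeq2 also called 0, with a smallest adjusted p of 0.0508, as did limma voom without quality weights, while limma voom with quality weights called 36 (0.287%), of which 32 were higher and 4 lower in NT3. Where an adjusted p of that tool is given for a gene below, it was the lowest of all alternatives, of which the highest was 1 for each. The names and values below therefore describe differences that the main test does not separate from the spread between rats, and they are written as higher or lower without a claim of change.

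Without any model, the lowest of the 5 NT3 values exceeded the highest of the 5 vehicle values in 162 transcripts (1.29%), and the order was the opposite in 82 (0.653%). This split depended on the scaling: with plain CPM, without the adjustment for library composition, the counts were 268 above and 41 below, and the split at an unadjusted p under 0.05 was 570 against 130. The median log2 difference over all transcripts moved only from -0.01 to 0.02 between these scalings. The factors of that adjustment themselves split the groups, at 0.974 to 0.984 in vehicle and 0.99 to 1.03 in NT3 libraries. Whether list means that did not overlap stay so under other scalings was not tested. Differences were small: of 11635 transcripts with a mean of at least 1 CPM, 125 were over 1.5-fold higher and 38 over 1.5-fold lower in NT3, and 9 and 6 passed 2-fold. The middle 90% of log2 differences lay between -0.28 and 0.34, with 45.1% above 0.

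**Figure D2:**
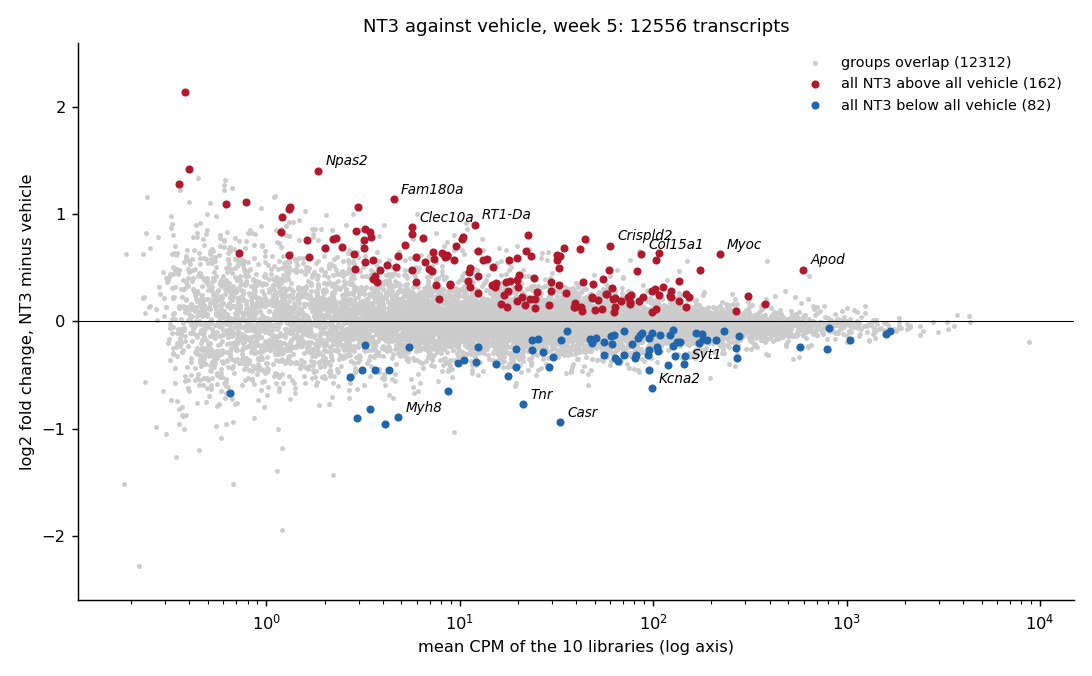
Log2 fold change of NT3 against vehicle at week 5 (vertical axis) by mean CPM of the 10 libraries (horizontal, log axis) for the 12556 tested transcripts. Red points are the 162 whose NT3 libraries all lay above the vehicle libraries, blue points the 82 whose NT3 libraries all lay below; none passed edgeR's adjusted threshold.

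The transcripts without overlap were not spread evenly over the gene lists. Among members of the lists for immune cells and pathways, 21 of 169 lay above without overlap and 1 below. Among connective tissue lists it was 11 of 52 above and 0 below, while among neuronal lists it was 1 of 234 above and 8 below. Among lists of ribosomal, respiratory chain and other housekeeping genes 0 of 184 lay on either side without overlap. These counts stand against the shares of 1.29% and 0.653% over all transcripts. The lists were chosen with earlier results of these data known. Members of a list were measured in the same rats and are not independent, so the counts are a description and carry no test. In whole ganglia, a lower value may mean fewer cells of a type or less RNA per cell, and these cannot be told apart here.

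**Figure D3:**
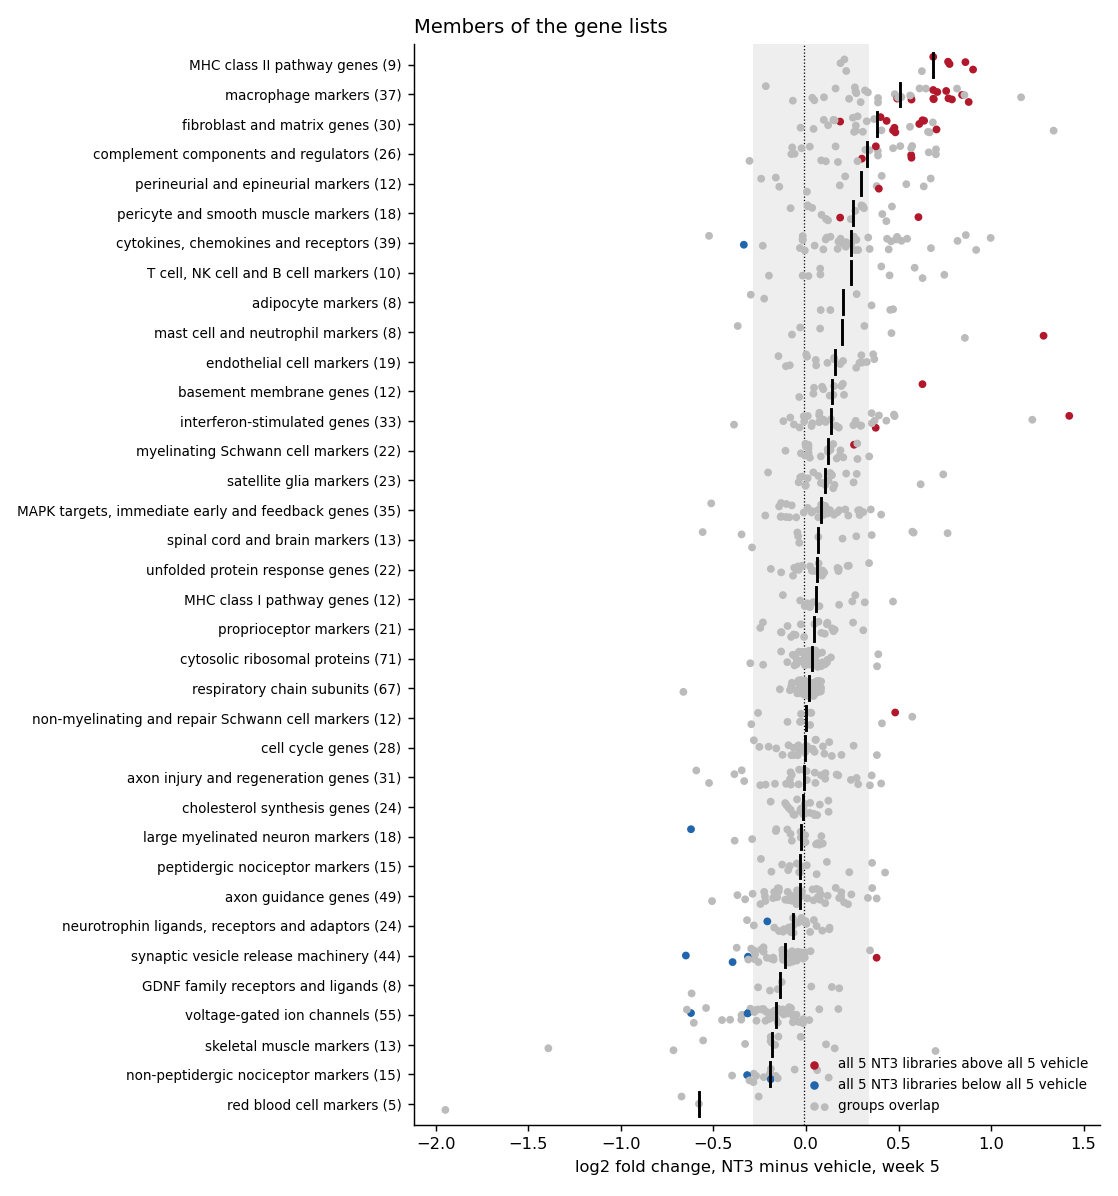
Log2 fold change of NT3 against vehicle at week 5 for the tested members of 36 gene lists, ordered by list median (black bars), with the number of tested members in brackets. Red and blue points are members without overlap between the groups; the grey band spans the middle 90% of all transcripts (-0.28 to 0.34) and the dotted line their median.

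Genes of fibroblasts and extracellular matrix were higher in NT3 ganglia. Of 30 tested members of this list, 29 had a positive log2 difference, with a median of 0.39 against -0.01 over all transcripts, and 10 lay above the vehicle libraries without overlap. The exception was Fstl1, at -0.03. The mean log2 CPM of the list was 5.75 ± 0.12 in NT3 libraries and 5.34 ± 0.10 in vehicle libraries (SD, n = 5 each), and the list median stayed between 0.35 and 0.42 in all alternative fits.

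Fam180a (NM_001108621) stood in no connective tissue list and was among the genes with the smallest p. It was at 8.71, 5.45, 6.67, 3.98 and 6.58 CPM in the 5 NT3 libraries and at 2.87, 2.01, 3.73, 2.22 and 3.40 CPM in the 5 vehicle libraries. The lowest NT3 value lay just above the highest vehicle value, and the log2 difference was 1.14 (SE 0.24), with an adjusted p of 0.382 by edgeR's quasi-likelihood test and 0.0258 by limma voom with quality weights. Crispld2 (NM_138518), which encodes a secreted glycoprotein, was at 83.2, 69.2, 79.4, 64.6 and 76.5 CPM in NT3 libraries. In vehicle libraries it was at 39.2, 51.0, 50.5, 40.2 and 47.9 CPM. The highest vehicle value lay well below the lowest NT3 value, with a log2 difference of 0.71 (SE 0.16), an edgeR adjusted p of 0.382 and a limma voom adjusted p of 0.0351 with quality weights.

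Col15a1 (NM_001100535), the gene of a collagen next to basement membranes, was at 93.7, 103, 109, 101 and 123 CPM in NT3 and 44.4, 75.5, 79.6, 67.9 and 74.1 CPM in vehicle libraries. Rat 1 was the lowest of the vehicle group, and the other 4 vehicle rats were also below every NT3 rat (log2 difference 0.63, SE 0.14; edgeR adjusted p = 0.382). Fn1 (NM_019143), the gene of fibronectin, was at 167, 130.4, 115, 100.2 and 144 CPM in NT3 and 85.3, 77.5, 96.2, 84.0 and 78.9 CPM in vehicle libraries (log2 difference 0.64, SE 0.24). Its NT3 values were more spread out than its vehicle values, without overlap. Among fibrillar and associated proteins, Col3a1 was at 205 ± 32.0 against 146 ± 11.1 CPM (SD, n = 5 each; log2 difference 0.48, SE 0.17), the proteoglycan gene Bgn at 95.7 ± 13.2 against 69.1 ± 7.86 CPM (log2 difference 0.47, SE 0.15) and the microfibril gene Mfap5 at 23.4 ± 1.75 against 17.3 ± 1.15 CPM (log2 difference 0.44, SE 0.13). Each of these 3 was without overlap. Dcn, another small proteoglycan of fibroblasts, overlapped through vehicle rat 14 (414 CPM), with 464 ± 77.9 against 314 ± 58.4 CPM (log2 difference 0.56, SE 0.18). Col1a1, the main fibrillar collagen gene, differed less, with 200.3 ± 27.2 against 165 ± 18 CPM (log2 difference 0.28, SE 0.16).

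Other genes with the smallest p on the higher side belonged to no connective tissue list. Gfpt2, an enzyme that feeds the hexosamine pathway, was at 15.7 ± 2.97 against 10.6 ± 1.15 CPM (log2 difference 0.57, SE 0.12). Scara5, a scavenger receptor that binds ferritin, was at 28.6 ± 5.22 against 16.4 ± 3.33 CPM (log2 difference 0.80, SE 0.18), and the related Scara3 at 62.5 ± 7.35 against 47.6 ± 1.23 CPM (log2 difference 0.39, SE 0.09). Steap4, a metal reductase, was at 43.1, 39.2, 34.7, 36.2 and 45.8 CPM in NT3 and 26.5, 26.0, 28.5, 25.0 and 24.6 CPM in vehicle libraries. Its vehicle values lay within 4 CPM of each other, and it had the smallest adjusted p of limma voom with quality weights (0.018; edgeR adjusted p = 0.427). Sod3, the extracellular superoxide dismutase, was at 109 ± 4.82 against 89.1 ± 8.67 CPM (log2 difference 0.29, SE 0.07). The homeobox gene Meox2 was at 4.41 ± 0.637 against 2.55 ± 0.579 CPM (log2 difference 0.79, SE 0.19), the secreted protein gene Srpx2 at 1.79 ± 0.312 against 0.849 ± 0.316 CPM (log2 difference 1.07, SE 0.27) and the scaffold gene Cnksr3 at 11.2 ± 1.44 against 7.48 ± 0.760 CPM (log2 difference 0.58, SE 0.15). Npas2, a transcription factor of the clock family, and Myoc, a secreted protein of connective tissue, were named after their values were seen, at 2.70 ± 1.54 against 1.00 ± 0.212 CPM (log2 difference 1.41, SE 0.45) and 269 ± 31.3 against 174 ± 34.3 CPM (log2 difference 0.63, SE 0.16). All 10 genes lay above the vehicle libraries without overlap, and the first 8 had edgeR adjusted p between 0.382 and 0.455.

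Macrophage markers were higher as well. Of 37 tested members 35 were positive, with a median log2 difference of 0.51, and 11 lay above the vehicle libraries without overlap. The mean log2 CPM of the list was 2.92 ± 0.25 in NT3 and 2.45 ± 0.16 in vehicle libraries (SD, n = 5 each), and the summed level of its members ranged over 473 to 778 and 373 to 481 CPM. The lowest summed NT3 value thus lay below the highest vehicle value.

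Clec10a (NM_022393), a lectin of tissue macrophages and dendritic cells, was at 8.21, 6.56, 7.64, 5.47 and 8.94 CPM in NT3 and 3.90, 3.97, 3.73, 3.38 and 5.02 CPM in vehicle libraries. The vehicle values were tight, the NT3 values wider, and the groups did not overlap (log2 difference 0.88, SE 0.22; edgeR adjusted p = 0.427). Tyrobp (NM_212525), the adaptor that carries the signal of several myeloid receptors, was at 6.56, 5.74, 6.13, 6.02 and 7.73 CPM in NT3 and 3.46, 4.2, 4.18, 3.61 and 4.21 CPM in vehicle libraries (log2 difference 0.71, SE 0.22). Cx3cr1 (NM_133534), the fractalkine receptor of resident macrophages, was at 4.24, 2.87, 3.94, 2.94 and 4.62 CPM in NT3 and 0.758, 2.57, 2.6, 1.83 and 2.6 CPM in vehicle libraries (log2 difference 0.84, SE 0.36). For Cx3cr1 rat 1, the first vehicle value, was the lowest, 3 others lay close below the NT3 range, and rat 42 lay between. Aif1, which encodes the macrophage protein Iba1, was at 12.9 ± 1.56 against 7.58 ± 1.93 CPM (log2 difference 0.77, SE 0.26) and the Fc receptor subunit gene Fcer1g at 13.1 ± 3.07 against 7.61 ± 2.25 CPM (log2 difference 0.79, SE 0.28), and rat 1 was the lowest vehicle library in both. Cd68, a lysosomal marker of macrophages, overlapped, at 6.41 ± 2.13 against 4.58 ± 0.912 CPM (log2 difference 0.48, SE 0.27).

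The highest list median was that of the genes for major histocompatibility complex (MHC) class II, by which antigen-presenting cells such as macrophages display peptides to T cells. All 9 tested members were positive, with a median log2 difference of 0.69, and 5 lay above the vehicle libraries without overlap. The other 3 listed genes, RT1-DMa, RT1-DMb and Ciita, were too low to be tested. The mean log2 CPM of the list was 2.82 ± 0.11 in NT3 and 2.25 ± 0.19 in vehicle libraries, and its summed level ranged over 139 to 175 and 89.9 to 117 CPM. One member, Ctss, is shared with the macrophage list. Macrophage markers were higher in the same libraries, and their part in the class II values was not tested.

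Class II genes are known to share a promoter module of X and Y boxes, which the factors RFX and NF-Y bind and through which the coactivator CIITA acts. The promoters of 3 class II genes are printed for that reason, from 250 bases before to 50 bases after the transcription start, in the RefSeq sequence of build GRCr8, which is not the build of the counts. Capitals mark GCAAC, the core of the X box, and TGATTGG, the inverted CCAAT of the Y box.
RT1-Da, chr20:4515165-4515464, + strand: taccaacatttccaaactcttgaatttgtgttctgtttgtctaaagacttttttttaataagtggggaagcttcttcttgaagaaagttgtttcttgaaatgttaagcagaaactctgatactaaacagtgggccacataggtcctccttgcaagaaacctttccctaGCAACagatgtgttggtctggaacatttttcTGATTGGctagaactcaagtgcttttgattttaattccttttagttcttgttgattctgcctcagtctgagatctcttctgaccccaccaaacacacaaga
RT1-Ba, chr20:4576807-4577106, + strand: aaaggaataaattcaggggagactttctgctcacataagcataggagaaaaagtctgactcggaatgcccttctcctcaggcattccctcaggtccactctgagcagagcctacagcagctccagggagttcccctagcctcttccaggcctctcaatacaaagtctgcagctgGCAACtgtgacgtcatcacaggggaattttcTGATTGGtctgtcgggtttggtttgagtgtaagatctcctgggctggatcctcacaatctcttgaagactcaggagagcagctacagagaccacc
RT1-Db1, chr20:4560113-4560412, - strand: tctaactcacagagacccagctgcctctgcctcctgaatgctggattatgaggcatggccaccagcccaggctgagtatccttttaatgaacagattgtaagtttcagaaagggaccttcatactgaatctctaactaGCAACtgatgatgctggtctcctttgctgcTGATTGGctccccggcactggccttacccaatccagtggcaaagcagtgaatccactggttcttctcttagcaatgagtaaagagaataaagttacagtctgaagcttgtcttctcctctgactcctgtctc
TGATTGG was found on either strand in 7 of the 10 class II list promoters in the table, including RT1-Bb, and in 7.06% of all 33469 promoters of that length. GCAAC was found in 35.1% of all promoters. The 3 printed promoters hold both motifs, which not all of the list do. RT1-Bb, RT1-DMa and Ifi30 lacked GCAAC, and Cd74, Ctss and Ifi30 lacked TGATTGG. The 2 motifs lay 31 bases apart in RT1-Da, 31 in RT1-Ba and 30 in RT1-Db1, counted between their starts, and the motifs were chosen with these sequences in view. They do not overlap each other. A match describes letters only.

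The values of the 3 genes are given by library. RT1-Da (NM_001008847), which encodes an alpha chain, was at 16.0, 13.3, 15.7, 17.4 and 15.3 CPM in NT3 and 5.74, 8.90, 10.5, 6.71 and 9.74 CPM in vehicle libraries, without overlap (log2 difference 0.90, SE 0.49; edgeR adjusted p = 1). RT1-Ba (NM_001008831), another alpha chain, was at 7.17, 7.10, 9.10, 9.6 and 7.62 CPM in NT3 and 3.30, 5.26, 5.93, 4.27 and 4.96 CPM in vehicle libraries, also without overlap (log2 difference 0.78, SE 0.38). RT1-Db1 (NM_001008884), a beta chain, was at 21.4, 19.7, 23.0, 22.8 and 20.7 CPM in NT3 and 18.1, 17.9, 21.2, 17.5 and 19.8 CPM in vehicle libraries, where the groups overlapped (log2 difference 0.19, SE 0.29). The difference of RT1-Db1 was smaller than its standard error. Neither a difference between the 3 genes nor the part of the promoter letters in these values was tested. RT1 genes have near-identical relatives, and reads of such copies may be split or lost between them.

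Cd74 (NM_013069), the invariant chain that escorts class II molecules, was at 50.4, 48.8, 54.2, 71.6 and 56.3 CPM in NT3 and 21.8, 36.8, 41.4, 27.6 and 37.7 CPM in vehicle libraries, without overlap (log2 difference 0.77, SE 0.45). RT1-Bb was at 4.18 ± 0.327 against 2.30 ± 0.574 CPM (log2 difference 0.86, SE 0.35), and Ctss, the protease that trims the invariant chain, at 42.9 ± 12.2 against 26.6 ± 2.0 CPM (log2 difference 0.69, SE 0.30). All 29 libraries share the estimate of spread, and 1 library outside the comparison, vehicle rat 27 of week 11, held 613 CPM of Cd74 where the other vehicle libraries of that week held 51.1 to 128 CPM. A fit without rats 27 and 8, the latter a week 11 sham library, was added after the data were seen. There the standard error of Cd74 was 0.24 and its adjusted p 0.389 by edgeR's quasi-likelihood test, that of RT1-Da was 0.23 with an adjusted p of 0.236, and no transcript passed, with a smallest adjusted p of 0.143.

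Complement genes, whose products tag and lyse targets, followed at a smaller scale. Of 26 tested members 21 were positive, with a median of 0.33 and 4 above without overlap, of which C1qa is also a macrophage marker. C1s (NM_138900), a protease that starts the classical pathway, was at 128, 107, 104, 116 and 159.8 CPM in NT3 and 78.5, 79.1, 94.7, 77.8 and 84.6 CPM in vehicle libraries (log2 difference 0.57, SE 0.19). Every NT3 library was higher, with rat 85 the highest. Serping1, which inhibits that protease, was at 153 ± 23.0 against 118 ± 10.5 CPM (log2 difference 0.38, SE 0.18), so enzyme and inhibitor both lay higher. The negative members were Cfi, C5ar2, Cd46, Cd55 and Masp1. Interferon-stimulated genes had a median of 0.14 with 26 of 33 positive. Oas3, an antiviral enzyme gene, was at 0.584 ± 0.139 against 0.213 ± 0.110 CPM (log2 difference 1.42, SE 0.40; limma voom adjusted p = 0.0351 with quality weights) and below 1 CPM in every library, and the transcription factor gene Irf1 at 20.5 ± 2.81 against 15.8 ± 0.485 CPM (log2 difference 0.38, SE 0.13). Lymphocyte markers were scarce, with 10 of 27 listed genes tested and a summed level of 19.8 to 25.9 CPM in NT3 and 15.3 to 20.5 CPM in vehicle libraries. Of these 10, 8 were positive with a median of 0.24, and their mean log2 CPM did not overlap (0.266 to 0.389 in NT3, 0.006 to 0.226 in vehicle libraries). Cytokines, chemokines and their receptors had a median of 0.24, with 31 of 39 positive and 0 above without overlap. Its member below without overlap was Tgfb2, a growth factor gene, at a log2 difference of -0.33. Class I genes differed less (median 0.06, 9 of 12 positive).

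**Figure D4:**
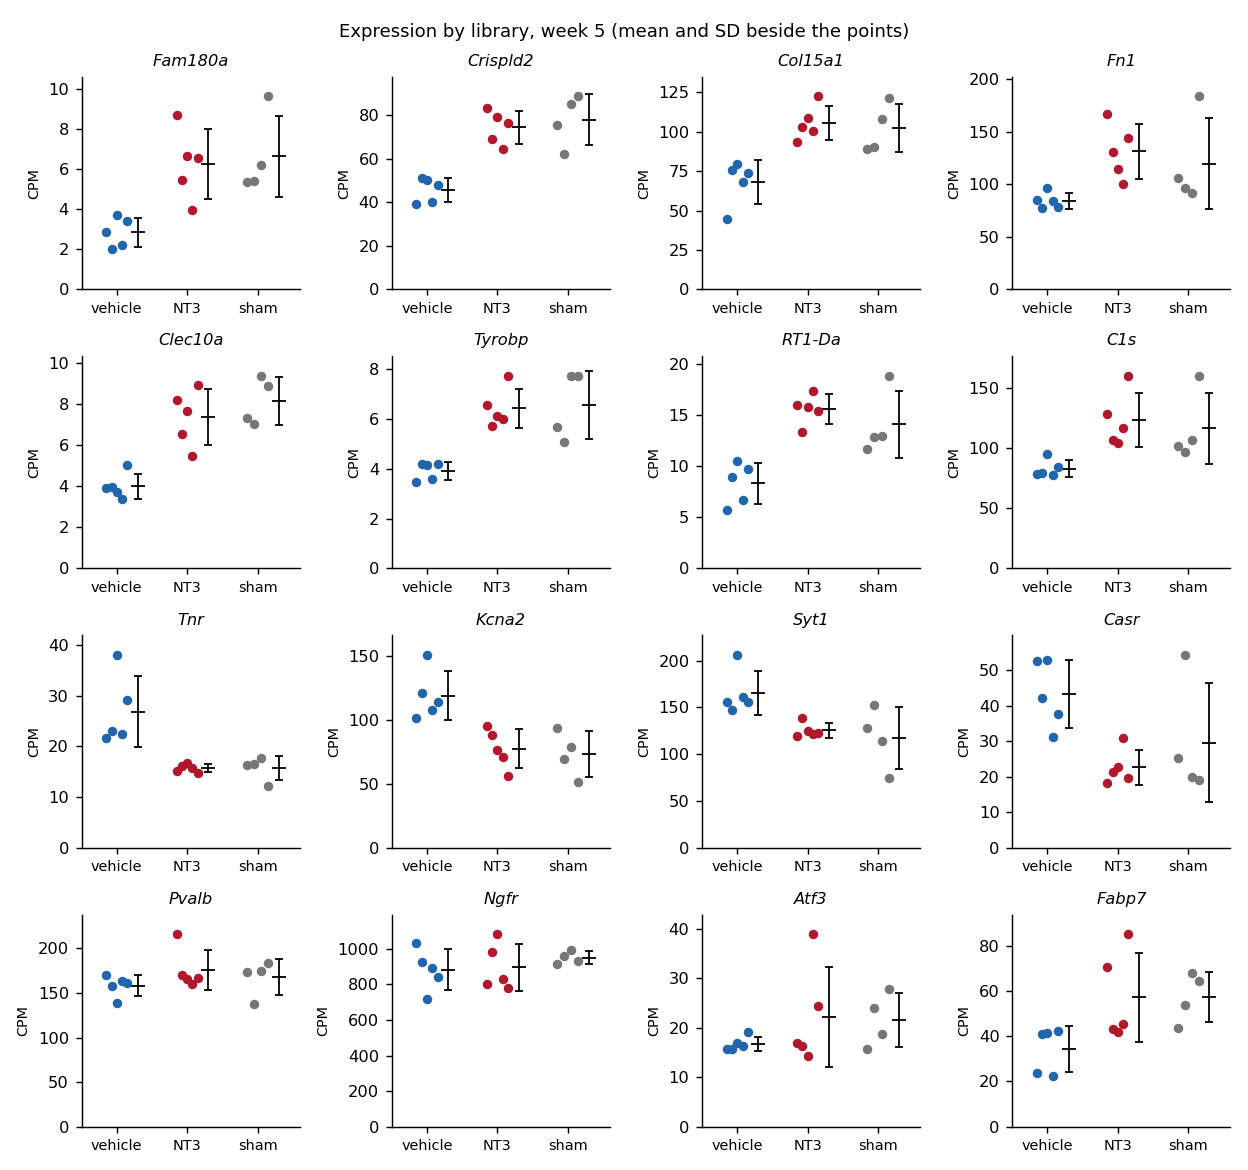
CPM of 16 genes in each library of week 5 vehicle (blue, 5 rats), NT3 (red, 5 rats) and sham (grey, 4 rats), with group mean and SD beside the points. The genes of the rows above the third are higher in NT3 than in vehicle libraries, the 4 genes of the third row lower, and Pvalb, Ngfr, Atf3 and Fabp7 overlap.

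Vessel and sheath genes leaned the same way with smaller values. Pericyte and smooth muscle markers had a median of 0.25 (17 of 18 positive, 2 above without overlap), and endothelial markers 0.15 (16 of 19 positive, 0 without overlap). The endothelial adhesion genes Esam and Pecam1 were at 17.7 ± 1.79 against 14.5 ± 1.95 CPM (log2 difference 0.29, SE 0.10) and 17.1 ± 2.19 against 14.2 ± 1.37 CPM (log2 difference 0.27, SE 0.10). Perineurial and epineurial markers had a median of 0.30 (9 of 12 positive). Among them Cldn1, a tight junction gene of the perineurium, was at 32.4 ± 6.54 against 20.8 ± 4.17 CPM (log2 difference 0.64, SE 0.21; limma voom adjusted p = 0.0388 with quality weights), and the Wnt inhibitor gene Sfrp4 at 4.06 ± 0.532 against 3.09 ± 0.266 CPM (log2 difference 0.39, SE 0.12).

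Glial lists had small medians. Non-myelinating and repair Schwann cell markers had a median of -0.0023 (6 of 12 positive, 1 above without overlap). That median ranged from -0.03 to 0.03 over the alternatives. Myelinating Schwann cell markers had a median of 0.12 (17 of 22 positive). Pllp, a myelin membrane gene, was the 1 member without overlap (61.9 ± 3.65 against 51.7 ± 4.05 CPM; log2 difference 0.26, SE 0.11). Apod, a lipid carrier made by Schwann cells and fibroblasts, was at 712, 607, 689, 609 and 868 CPM in NT3 and 499, 488, 550.1, 442 and 515 CPM in vehicle libraries (log2 difference 0.48, SE 0.15). For satellite glia markers the median was 0.10, and 17 of 23 members were positive, with 0 free of overlap. The fatty acid binding gene Fabp7, a marker of these cells, was at 70.7, 43.1, 41.8, 45.4 and 85.1 CPM in NT3 and 23.9, 40.9, 41.5, 22.3 and 42.4 CPM in vehicle libraries (log2 difference 0.74, SE 0.36). Rats 25 and 85 were high and rats 1 and 42 low, and the rest lay close together.

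Genes of ion channels, synaptic vesicles and non-peptidergic nociceptors were lower in NT3 ganglia, the same libraries in which the fibroblast and macrophage lists were higher. The part of one shift in the other was not tested. Of 55 tested voltage-gated ion channel genes, 3 had a positive log2 difference, with a median of -0.16 and 3 genes below the vehicle libraries without overlap. The mean log2 CPM of the list lay between 5.90 and 6.06 in NT3 and between 6.08 and 6.31 in vehicle libraries, and its summed level over 8463 to 9234 and 9461 to 10452 CPM. Kcna2 (NM_012970), a potassium channel subunit of myelinated axons, was at 95.1, 88.3, 76.8, 70.9 and 56.2 CPM in NT3 and 101, 121, 151, 108 and 115 CPM in vehicle libraries. The highest NT3 value lay just below the lowest vehicle value (log2 difference -0.62, SE 0.25; edgeR adjusted p = 0.835). The calcium channel gene Cacna1c was at 63.3 ± 5.27 against 78.8 ± 6.74 CPM (log2 difference -0.32, SE 0.13), below without overlap. Kcnma1, a calcium-activated potassium channel, overlapped (log2 difference -0.30, SE 0.11).

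Genes of synaptic vesicle release had a median of -0.12 with 3 of 44 positive, and without overlap 3 members lay below and 1 above. Syt1 (NM_001033680), the calcium sensor of vesicle fusion, was at 119.9, 139, 125, 121 and 122 CPM in NT3 and 156, 147, 206, 161 and 155 CPM in vehicle libraries (log2 difference -0.40, SE 0.16). Vehicle rat 14 was the highest, and without it the vehicle group still lay above every NT3 rat. Slc17a8, the vesicular glutamate transporter VGLUT3, was at 6.76 ± 0.572 against 10.6 ± 3.12 CPM (log2 difference -0.65, SE 0.20), with rat 14 again highest, and Syt7 at 83.5 ± 7.16 against 104 ± 8.48 CPM (log2 difference -0.31, SE 0.15). The member on the other side was Rab3b, a small GTPase of vesicles (12.5 ± 0.875 against 9.61 ± 1.13 CPM; log2 difference 0.38, SE 0.15). For non-peptidergic nociceptor markers the median was -0.19, and 2 of 15 were positive. Scn11a, a sodium channel of small neurons, was at 737 ± 118 against 888 ± 77.8 CPM (log2 difference -0.27, SE 0.13) and the cold receptor gene Trpm8, also on this list, at 128 ± 9.59 against 146 ± 9.49 CPM (log2 difference -0.19, SE 0.09). Peptidergic nociceptor markers (median -0.03, 6 of 15 positive) and markers of large myelinated neurons (-0.03, 5 of 18) were nearer to the median of all transcripts, so neuronal lists did not all share the size of the difference.

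Several genes outside these lists had the smallest p on the lower side. Tnr (NM_013045), which encodes tenascin-R, a matrix protein of the nervous system, was at 15.1, 16.1, 16.7, 15.8 and 14.7 CPM in NT3 and 21.6, 22.9, 38.1, 22.4 and 29.2 CPM in vehicle libraries. The NT3 values were close together and below every vehicle value (log2 difference -0.77, SE 0.21; edgeR adjusted p = 0.458, limma voom adjusted p = 0.0351 with quality weights). Camk4, a calcium-dependent kinase, was at 11.1 ± 1.96 against 15.4 ± 2.27 CPM (log2 difference -0.46, SE 0.13), the diacylglycerol kinase gene Dgki at 70.2 ± 9.02 against 96.2 ± 18.2 CPM (log2 difference -0.45, SE 0.14) and Mturn, a gene of neural differentiation, at 165 ± 12.9 against 202 ± 15.8 CPM (log2 difference -0.29, SE 0.08), and these 3 overlapped. Plppr5, a membrane protein of neurites, was at 2.49 ± 0.429 against 4.39 ± 1.36 CPM (log2 difference -0.82, SE 0.26) and the transporter gene Slc16a12 at 14.7 ± 1.18 against 20.9 ± 4.13 CPM (log2 difference -0.51, SE 0.16), both without overlap. Casr (NM_016996), the calcium-sensing receptor, named after its values were seen, had one of the larger differences, with 18.2, 21.3, 22.9, 30.9 and 19.7 CPM in NT3 and 52.7, 42.2, 52.9, 31.1 and 37.8 CPM in vehicle libraries (log2 difference -0.94, SE 0.31). NT3 rat 62 and vehicle rat 42 nearly met.

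Myh8 (NM_001100485), a myosin heavy chain of developing muscle, was at 2.92, 4.96, 2.68, 3.38 and 2.83 CPM in NT3 and 5.47, 7.22, 6.83, 6.32 and 5.42 CPM in vehicle libraries (log2 difference -0.89, SE 0.20; edgeR adjusted p = 0.382, limma voom adjusted p = 0.0258 with quality weights). Of 13 tested muscle markers, 3 were positive, with a median of -0.19 and summed levels of 202 to 262 and 195 to 212 CPM. Acta1 was at 6.25 ± 1.11 against 9.2 ± 3.37 CPM and Ckm at 0.619 ± 0.232 against 1.64 ± 2.21 CPM, with rat 14 highest among the vehicle libraries in both, while Pygm, a glycogen phosphorylase, was at 10.3 ± 2.99 against 6.34 ± 0.624 CPM. The list median reached 0.06 under an alternative, and whether muscle attached to the ganglia took part in the Myh8 difference was not tested. The median of red blood cell markers was -0.58 (1 of 5 positive), which ranged from -0.83 to 0.23 over the alternatives, while spinal cord and brain markers had 0.07 and adipocyte markers 0.20.

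The levels of the neurotrophin receptors Ngfr and Ntrk2 overlapped between the groups. Ngfr (NM_012610) was at 803, 983, 1083, 828 and 782 CPM in NT3 and 1033, 923, 719, 892 and 843 CPM in vehicle libraries (log2 difference 0.02, SE 0.13; edgeR adjusted p = 1). The groups overlapped through most of their range, and the sign of the difference turned in fits without single libraries. The transcripts of Ntrk2 lay on opposite sides. NM_001163168 was at 323 ± 31.2 against 304 ± 44.9 CPM (log2 difference 0.09, SE 0.12) and NM_012731 at 35.9 ± 4.09 against 49.7 ± 8.96 CPM (log2 difference -0.47, SE 0.17), with ambiguous reads in neither. Ntrk3, the receptor that NT3 prefers, held 0 reads in these 10 libraries and Ntf3, the gene of NT3, also 0, in 3 and 4 listed transcripts. Ambiguous reads are counted for no transcript, so a level of either gene cannot be read from these zeros.

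The list of neurotrophin ligands, receptors and adaptors had a median of -0.07 with 7 of 24 positive. Its mean log2 CPM was lower in NT3 without overlap, though by little, with 6.073 to 6.151 against 6.153 to 6.223 in vehicle libraries. The factors for library composition also split the groups, and this narrow gap was not tested under other scalings. Its only member without overlap was Sorcs3, a sorting receptor of the sortilin family, at 72.3 ± 2.88 against 83.6 ± 6.95 CPM (log2 difference -0.21, SE 0.10). Receptors of the GDNF family, which serve other sensory neurons, had a median of -0.14, with Gfra1 at 274 ± 19.2 against 300.4 ± 21.4 CPM (log2 difference -0.13, SE 0.08) and Gfra3 at 75.0 ± 4.34 against 68.0 ± 8.42 CPM (log2 difference 0.14, SE 0.08).

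Proprioceptor markers lay on both sides of 0. Their median was 0.05 with 11 of 21 positive and 0 of 21 without overlap on either side. Pvalb (NM_022499), the calcium-binding protein parvalbumin that marks these neurons, was at 216, 170.1, 166, 160.1 and 167 CPM in NT3 and 169.9, 158, 138, 163 and 161 CPM in vehicle libraries (log2 difference 0.15, SE 0.12; edgeR adjusted p = 1). Rat 25 was the highest, and the groups overlapped in the other libraries. Etv4, a transcription factor of the Pea3 family expressed by subsets of these neurons, was at 12.2 ± 2.28 against 9.86 ± 3.76 CPM (log2 difference 0.31, SE 0.20).

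Genes downstream of receptor kinases differed by small amounts. Immediate early and feedback genes of the MAPK pathway centred on 0.08, and 23 of 35 were positive, against 45.1% of all transcripts. Their median lay between 0.03 and 0.14 over the alternatives, with 0 members free of overlap. At an unadjusted p under 0.05, 3 of 35 members were higher and 0 lower, against 3.38% and 1.61% of all transcripts. The phosphatase gene Dusp6, a feedback inhibitor of ERK, was at 22.7 ± 4.41 against 17.8 ± 4.73 CPM (log2 difference 0.35, SE 0.15). Axon injury and regeneration genes had a median of -0.01 with 15 of 31 positive. Atf3 (NM_012912), a transcription factor induced in injured sensory neurons, was at 17.0, 16.3, 14.4, 38.9 and 24.5 CPM in NT3 and 15.6, 15.7, 17.0, 16.4 and 19.1 CPM in vehicle libraries (log2 difference 0.41, SE 0.19; edgeR adjusted p = 0.973). Rats 62 and 85 were high and the other 3 NT3 rats lay near the vehicle group. Axon guidance genes had a median of -0.03 (21 of 49 positive), cell cycle genes of -0.01 (13 of 28), cytosolic ribosomal proteins of 0.03 (47 of 71), respiratory chain subunits of 0.02 (41 of 67), unfolded protein response genes of 0.06 (14 of 22) and cholesterol synthesis genes of -0.02 (8 of 24). The medians of axon injury, cell cycle, cholesterol synthesis and respiratory chain genes crossed 0 under some alternatives, as did those of peptidergic nociceptors and large myelinated neurons.

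The position of both groups relative to sham ganglia is given side by side, since these comparisons share the NT3 or the vehicle libraries and are not independent of the comparison above. For fibroblast and matrix genes the median log2 difference from sham was -0.31 in vehicle and 0.08 in NT3 libraries, for macrophage markers -0.47 and 0.01, for class II genes -0.70 and 0.02, and for complement genes -0.23 and 0.05. For voltage-gated channels the medians were 0.20 and 0.02, and for synaptic vesicle genes 0.09 and -0.04. In these 6 lists, shown because they carry the differences above, the vehicle median lay farther from sham than the NT3 median. Other lists went the other way. For non-peptidergic nociceptor markers the medians were 0.04 in vehicle and -0.14 in NT3 libraries, for endothelial markers -0.01 and 0.15, for GDNF family genes -0.01 and -0.15, for satellite glia -0.03 and 0.07, and for cell cycle genes 0.17 and 0.22. Crispld2, for example, was at 75.5, 62.4, 85.5 and 88.8 CPM in the 4 sham libraries, and Tnr at 16.3, 16.6, 17.7 and 12.2 CPM, values that overlap those of NT3 and not those of vehicle. Postn, the gene of periostin, was an exception, with 18.8 ± 4.33 CPM in sham (SD, n = 4), 18.4 ± 5.54 CPM in vehicle and 28.1 ± 6.24 CPM in NT3 libraries (SD, n = 5 each), as was Sfrp4 (2.97 ± 0.377 CPM in sham). EdgeR called 0 transcripts in vehicle against sham and 0 in NT3 against sham at week 5. At an unadjusted p under 0.05 there were 1052 and 301 of the 12556 transcripts tested, and DESeq2 called 10 and 0. These counts were not compared by a test.

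**Figure D5:**
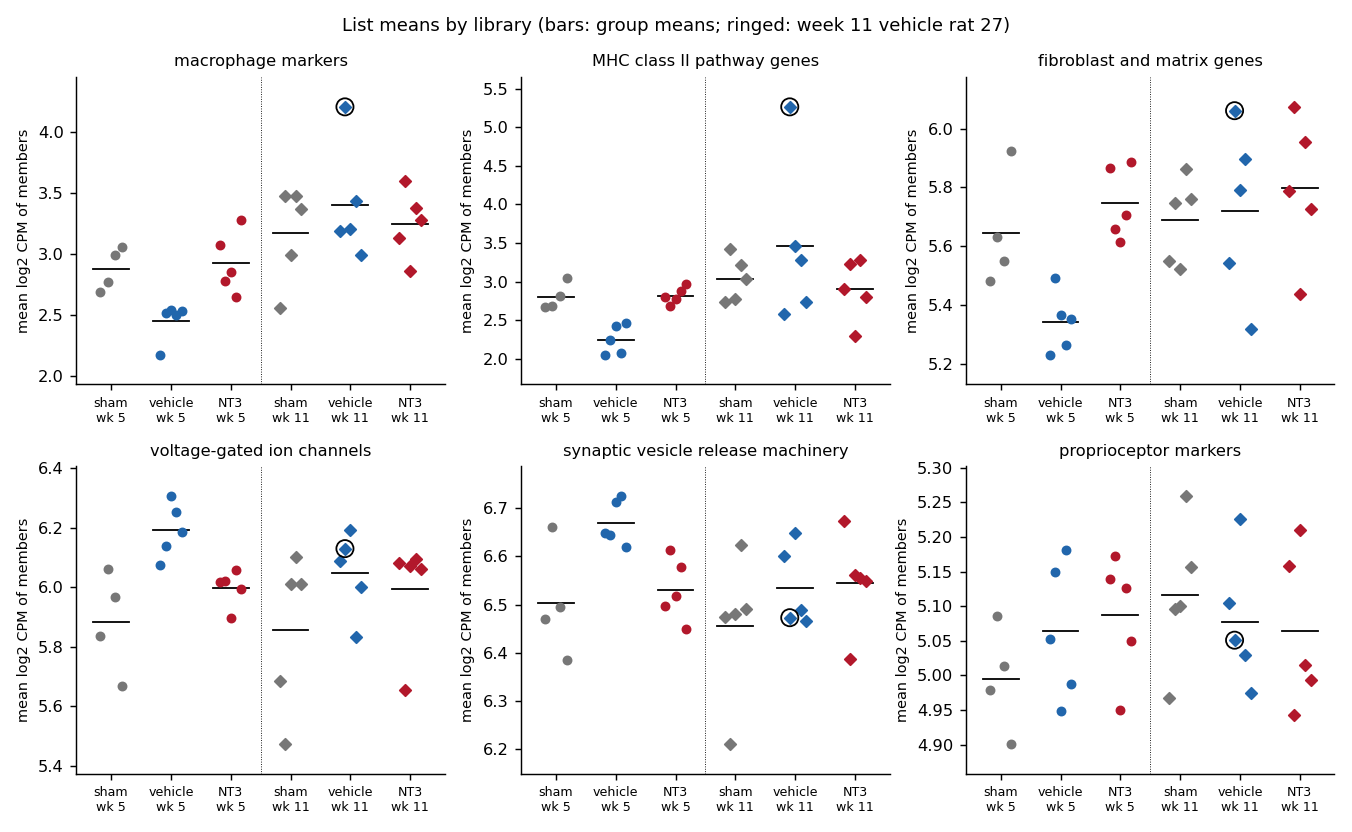
Mean log2 CPM of the members of 6 gene lists in each library (points) of the 6 groups, circles for week 5 and diamonds for week 11, with bars for group means and a ring around week 11 vehicle rat 27. At week 5 the vehicle libraries lie below the NT3 libraries in the upper 3 lists and above them in channels and synaptic vesicle genes; at week 11 the groups overlap.

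Week 11 offered a comparison of NT3 and vehicle in other rats, which shares no library with week 5. EdgeR called 0 transcripts (0%) there, with 191 at an unadjusted p under 0.05 (1.52%), and 19 (0.151%) lay above and 17 (0.135%) below without overlap. None of the 162 and 82 transcripts without overlap at week 5 was without overlap at week 11, in either direction. Shares of 0.151% and 0.135% over all transcripts leave few or none to be found in any set of this size. The count therefore says nothing about these transcripts in particular. The difference between the weeks was itself tested, and 0 transcripts (0%) passed, with 378 at an unadjusted p under 0.05 (3.01%) and 301 without rats 8 and 27. This test shows neither a difference between the weeks nor its absence.

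The week 11 values moved when rats 8 and 27 were left out together, of which only rat 27 belongs to this comparison. Vehicle rat 27 had 9555685 assigned reads, the fewest of the series, with 38.3% of its reads outside annotated features. Its mean log2 CPM of spinal cord and brain markers was 3.668, against 1.404 to 1.695 in the other 4 vehicle libraries of week 11, and the part of this in its immune values was not tested. Class II genes had a median log2 difference of -0.91 at week 11 (0 of 9 positive) and of -0.19 without rats 8 and 27 (2 of 8 positive), with NT3 lower in both. Macrophage markers had -0.22 (6 of 37) with all libraries and 0.09 (25 of 37) without those rats, which turns the sign, and complement genes -0.06 and 0.13. Fibroblast and matrix genes were positive in both, at 0.09 (23 of 30) and 0.17 (27 of 30), below the 0.39 of week 5. Voltage-gated channels were at 0.01 and -0.01, and synaptic vesicle genes at 0.0106 and -0.0027. Among single genes, Fam180a differed by -0.07 at week 11, Crispld2 by 0.0037, Col15a1 by -0.02, Tyrobp by -0.36 and Tnr by -0.18, with -0.11, 0.12, 0.02, -0.06 and -0.15 without rats 8 and 27. Kcna2 had a negative difference at both times, with -0.51 at week 11 and -0.42 without those rats. Of the 162 transcripts that lay higher in NT3 without overlap at week 5, 72 were positive at week 11 with all libraries. Without those 2 rats it was 115 of the 161 tested. Of the 82 that lay lower, 42 were positive with all libraries and 28 without those rats. Over all transcripts the median log2 difference at week 11 was 0.0018 with all libraries. The share of all transcripts positive at week 11 is not given here. These counts therefore do not show whether the week 5 differences recurred.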

How the data were processed

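The deposited files hold raw counts per RefSeq transcript, which the authors made from poly-A RNA libraries, 1 per rat, with read duplicates removed per the file names. Named in the submitters' processing notes, without options, are the build rn6 and the tools HTSeq, Picard, TopHat2 and bcl2fastq 1.8.4. Of 18092 transcripts, 17090 were matched to symbols through a RefSeq table of build GRCr8, used for names and promoter sequences only. Where nothing says otherwise, p-values set a difference between groups against the spread between rats within groups, estimated over all 29 libraries.

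Counts of all 29 libraries, in 6 groups, were fitted with edgeR 4.0.16 in R 4.3.3 (quasi-likelihood test, TMM factors between 0.974 and 1.061), keeping 12556 transcripts that passed its expression filter (minimum count 10, minimum total 15). Tests were two-sided with Benjamini-Hochberg adjustment, with a threshold of 0.05. Log2 CPM for list means used a prior count of 2. The script was tested on simulated data. Alternatives were DESeq2 1.42.0, limma 3.58.1 voom with and without quality weights, other scalings, no filter, only the compared libraries, the share of reads outside features as a covariate, the smaller deposited table, and leaving out each of the 10 libraries.

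Genes named were up to 12 each way with the smallest p among transcripts with a symbol and a mean of at least 1 CPM, the 3 with the smallest p of each of 36 lists, and a fixed set of receptors and markers. Further members of these lists, and Casr, Npas2 and Myoc, were named after their values were seen, to show members without overlap, exceptions and well-known markers. The comparison and the lists were chosen with earlier results of these data known. A few genes of these lists are not reported here by name.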

Additional observations from a re-analysis of the deposited data

Results flagged for a closer look

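Values of 1 library far from the other 4 of its group were looked for in 184 groups of named genes and list means, and 19 were found. The cutoff gives about 1 in 20 groups for independent, normally distributed values. These groups share rats and include genes picked for small p, so no excess over that rate is read from the 19. Vehicle rat 14 stood apart most often, high in Slc17a8 (16.0 CPM), Plppr5 (6.77 CPM), Dcn (414 CPM), Syt1 (206 CPM), Sorcs3 (96.0 CPM), Ckm (5.59 CPM) and the mean log2 CPM of skeletal muscle markers (2.38). Vehicle rat 1 was low in Aif1 (4.22 CPM) and in the mean log2 CPM of macrophage markers (2.17) and complement genes (4.04). NT3 rat 25 was high in Scara3 (75.4 CPM), Meox2 (5.51 CPM) and Pvalb (216 CPM) and low in Sorcs3 (67.3 CPM). NT3 rat 85 was high in Cd68 (10.2 CPM), Serping1 (193 CPM) and Col1a1 (247 CPM), NT3 rat 56 in Syt1 (139 CPM) and NT3 rat 62 in Gpc3 (40.0 CPM), the gene of a surface proteoglycan.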

How the results depend on the processing

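No transcript was called by edgeR at week 5 under any scaling, filter, set of libraries or covariate tried, nor without any 1 of the 10 libraries (0 in each), and DESeq2 and limma voom without weights also called 0. Limma voom with quality weights called 36 at week 5 and 1079 in vehicle against sham, where DESeq2 called 10. The cause of these gaps between tools was not tested. At an unadjusted p under 0.05 the main count of 626 became 972 with only the compared libraries, 1308 with limma voom and quality weights, 837 without rats 8 and 27, and 448 to 744 without single libraries. With plain CPM scaling, 268 transcripts lay above and 41 below without overlap. Of 720 list medians under the alternatives, 10 moved by more than the spread between replicates. No list median carried a call, so none could change the sign of a called value. Some medians did cross 0, such as those of skeletal muscle and red blood cell markers. Of 1599 values of 79 named genes, 23 passed the threshold, all under limma voom with quality weights, and 3 changed sign. Over fits without single libraries, the log2 fold change of Ngfr ranged from -0.0569 to 0.0945 and was negative without vehicle rat 14, NT3 rat 56 or NT3 rat 61. No paired analysis was possible because each rat number belongs to 1 library only. Ntrk3 and Ntf3 have several transcripts each, and ambiguous reads are counted for none, so their counts of 0 do not limit their level.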
